A study of Mus musculus with 9 samples.

Results

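The genes described here are the nuclear-encoded subunits of the mitochondrial oxidative phosphorylation complexes in mouse aorta. They were taken by name from the protein-coding genes of the GENCODE M21 annotation: the Ndufa, Ndufb, Ndufc, Ndufs and Ndufv genes of complex I, the Sdh genes of complex II, the Uqcr genes of complex III, the Cox4 to Cox8 genes of complex IV without Cox7a1 and Cox8b, and the Atp5 genes of complex V. Genes at 9.7 to 29.7 Mb of chromosome 7 were to be skipped, and 0 matches lay there. The rule matched 83 annotated genes, of which 80 had a row among the 33293 gene IDs of the expression table: 37 in complex I, 4 in complex II, 8 in complex III, 14 in complex IV and 17 in complex V. The rule used names and positions and no measured value, but it was chosen with earlier results of these data known.

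RNA was sequenced from whole aortas dissected from normally fed (chow) male mice, 7 to 8 weeks old. The 5 control libraries came from C57BL/6J wild-type mice and the 4 others from mice lacking Apoe, the apolipoprotein that clears lipoprotein remnants from plasma and whose loss makes mice prone to atherosclerosis. The labels give polyA RNA as the molecule while their protocol describes removal of ribosomal RNA, and they do not say that each library is a separate animal, so p-values measure the spread between these libraries. Values are FPKM, fragments per kilobase of exon scaled to the mapped reads of the library, and the depth recovered from them was 17002884 to 19765342 reads per library. Apoe itself lay at 513 to 643 FPKM in the wild-type libraries and at 5.64 to 6.55 FPKM in the knockout libraries.

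Oxidative phosphorylation is the last stage of respiration in the inner mitochondrial membrane. Complexes I and II pass electrons from NADH and succinate to ubiquinone, complex III passes them to cytochrome c, complex IV passes them to oxygen, and complex V, the ATP synthase, uses the resulting proton gradient to make ATP. All but complex II also hold subunits encoded by mitochondrial DNA. In the aortic wall, smooth muscle cells, endothelium and the fat around the vessel all carry these complexes, and brown-type fat is especially rich in them.

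All 80 genes were detected, and all passed the filter of at least 1 FPKM in at least 4 libraries. A mean above 10 FPKM was found for 73 of them and a mean above 100 FPKM for 17. Atp5b, the catalytic beta subunit of ATP synthase, had the highest mean at 302 FPKM, followed by Cox6a1, the widely expressed form of a small complex IV subunit, at 296 FPKM. At the lower end lay Ndufb2 at 1.46 FPKM, the muscle-type subunit Cox6a2 at 1.57 FPKM and Atp5s at 3.54 FPKM. Ndufb2 carries 5628 exonic bases in the annotation and its exons overlap those of Braf and of Gm42420, so its level per length is uncertain.

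**Figure D1:**
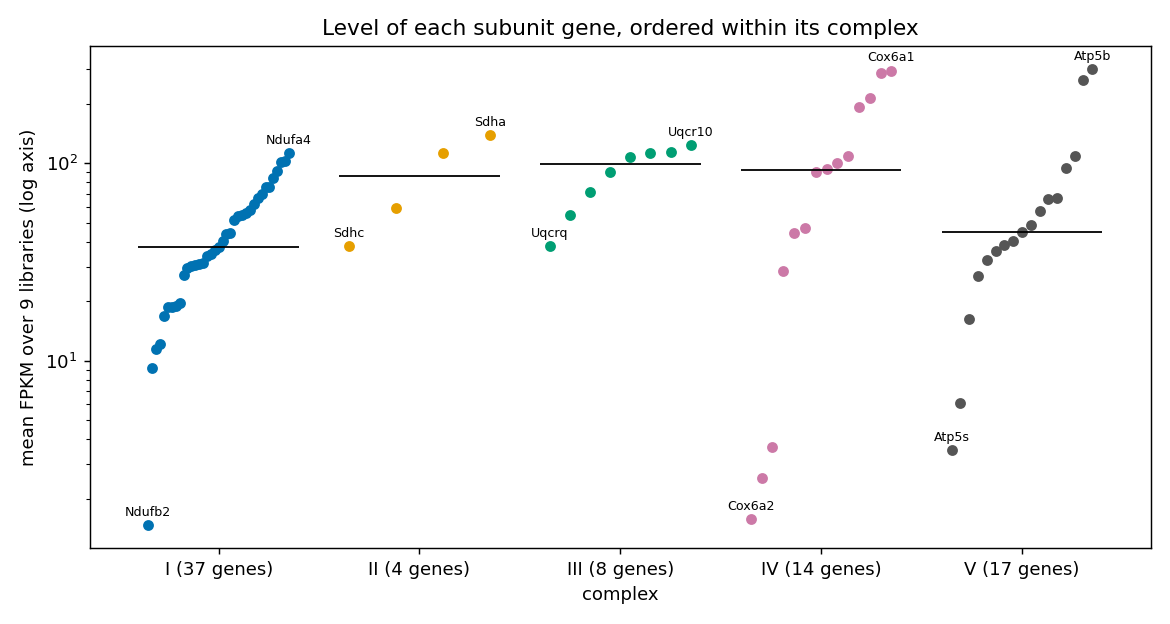
Mean FPKM over the 9 libraries of each of the 80 subunit genes, 1 point a gene, ordered within its complex on a log axis, with a line at the median of the complex. The named genes are the lowest and highest of each complex, from Ndufb2 at 1.46 FPKM to Atp5b at 302 FPKM.

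Promoters are shown for genes whose window before the start site holds a short motif known from respiratory genes. Any link between these motifs and the measured values was not tested. RefSeq windows of the GRCm38.p6 build, from 250 bases before to 50 bases after the start, were found for 63 of the 80 genes. The motifs searched on both strands were GCGCATGCG for NRF1, CCGGAAG for the ETS family, AAGATGGCG for YY1 and TCAAGGTCA for the ERR receptors. None of these 4 contains another. Each stretch below has 100 bases, reads 5′ to 3′ on the strand of the gene, and has the motif named before it in capitals. The Atp5j stretch also holds the ETS motif, in lower case.
Cox6a1, NRF1, chr5:115349067-115349166, minus strand: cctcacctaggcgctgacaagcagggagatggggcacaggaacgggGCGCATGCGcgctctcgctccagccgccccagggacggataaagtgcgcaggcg
Sdhd, ETS on the opposite strand, chr9:50603850-50603949, minus strand: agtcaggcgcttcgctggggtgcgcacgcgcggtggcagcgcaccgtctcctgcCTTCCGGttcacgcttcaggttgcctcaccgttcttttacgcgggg
Atp5j, YY1, chr16:84835011-84835110, minus strand: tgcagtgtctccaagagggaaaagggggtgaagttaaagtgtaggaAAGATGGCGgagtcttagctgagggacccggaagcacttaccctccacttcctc
Atp5g3, ERR on the opposite strand, chr2:73911327-73911426, minus strand: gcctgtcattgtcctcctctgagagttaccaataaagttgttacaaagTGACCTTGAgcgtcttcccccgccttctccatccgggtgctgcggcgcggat

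At least 1 of the 4 motifs stood in the windows of 27 of the 63 subunit genes, or 42.9%, against 19.8% of 14251 protein-coding genes with a window. The NRF1 motif was in 8 subunit genes, 12.7%, and in 3.14% of all genes. The ETS motif was in 16 subunit genes, 25.4%, and in 15.2% of all genes. For YY1 these were 7 genes, 11.1%, and 2.59%. The ERR motif was in only 2 subunit genes, 3.17%, and in 0.351% of all genes. A match describes letters in these windows and says nothing about binding in the aorta.

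Between the genotypes, 2 of the 80 subunit genes passed the test, both lower in the knockout: Ndufa4l2 of complex I by name and Atp5s of complex V. The test was limma on log2(FPKM + 1) over 13383 genes with Benjamini-Hochberg adjustment at 0.05, and fold changes are on that scale, which understates the change of low genes. It called 7.35% of all tested genes, 3.43% higher and 3.92% lower in the knockout, against 2.5% of the subunit genes. The 2 calls therefore do not exceed the background. Wild-type and knockout libraries did not overlap in 2 of the 80 subunit genes, against 12.4% of all tested genes.

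Ndufa4l2 is a hypoxia-inducible relative of Ndufa4. It lies at chr10:127514967-127517154 on the plus strand of GRCm38, with 1095 exonic bases. Its values were 12.6, 10.6, 9.89, 9.41 and 11 FPKM in wild-type libraries 1 to 5 and 6.17, 8.27, 8.24 and 6.02 FPKM in knockout libraries 1 to 4. Every knockout library lay below every wild-type library. The means were 10.7 ± 1.24 (SD, n = 5) and 7.18 ± 1.25 FPKM (SD, n = 4), and the gene fell by 0.53 on the log2 scale (SE 0.11, limma adjusted p = 0.0246). Its exons overlap those of Shmt2 on the opposite strand, and the 2 genes share only positions 127517123 to 127517154. Since strandedness is not stated in the sources used here, reads from these genes cannot be told apart in that short stretch. Shmt2 had a log2 difference of -0.06 (limma adjusted p = 0.831).

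Atp5s, listed as Dmac2l in RefSeq, is known from bovine mitochondria as a coupling factor of ATP synthase and lies at chr12:69724950-69744660 on the plus strand. It measured 4.37, 4.18, 4.24, 3.69 and 3.53 FPKM in the wild-type libraries and 2.94, 2.88, 2.81 and 3.18 FPKM in the knockout libraries. Again the groups did not overlap. The means were 4.0 ± 0.368 (SD, n = 5) and 2.95 ± 0.160 FPKM (SD, n = 4), a log2 change of -0.34 (SE 0.077, limma adjusted p = 0.0298). Neither call held in every alternative fit: both were lost when libraries were centred on their medians. Ndufa4l2 was lost without wild-type library 1, 2 or 5 or knockout library 1 or 4, and Atp5s without wild-type library 1, 2, 3 or 4 or knockout library 1 or 3.

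For the other 78 genes no difference passed the test. The estimate was below 0 in 77 of the 80 subunit genes, compared with 63.9% of all tested genes, and their median log2 difference was -0.12 compared with -0.07 for all tested genes. That gap depended on which library was left out. It closed without knockout library 3 (-0.056 and -0.060, with 52 of the 80 estimates below 0), knockout library 4 (-0.071 and -0.074) or wild-type library 3 (-0.072 and -0.082). It stayed without wild-type library 1 (-0.137 and -0.058), 2 (-0.136 and -0.052), 4 (-0.114 and -0.069) or 5 (-0.139 and -0.068). Without knockout library 1 the medians were -0.110 and -0.073, and without knockout library 2 they were -0.23 and -0.06. Centring every library on its median brought these medians to -0.05 and -0.00 and left 57 of the 80 estimates below 0. With quantile normalization the medians were -0.13 and -0.00, with 74 of the 80 estimates below 0. A filter of 10 FPKM gave -0.11 and -0.01, with 70 of the 73 subunit genes kept below 0. The subunit genes share libraries and move together, so these counts are a description with no test. The 95% interval of the difference included 0 in 76 genes, and in 75 of the 80 it excluded a decrease of 1.5-fold on the log2(FPKM + 1) scale.

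**Figure D2:**
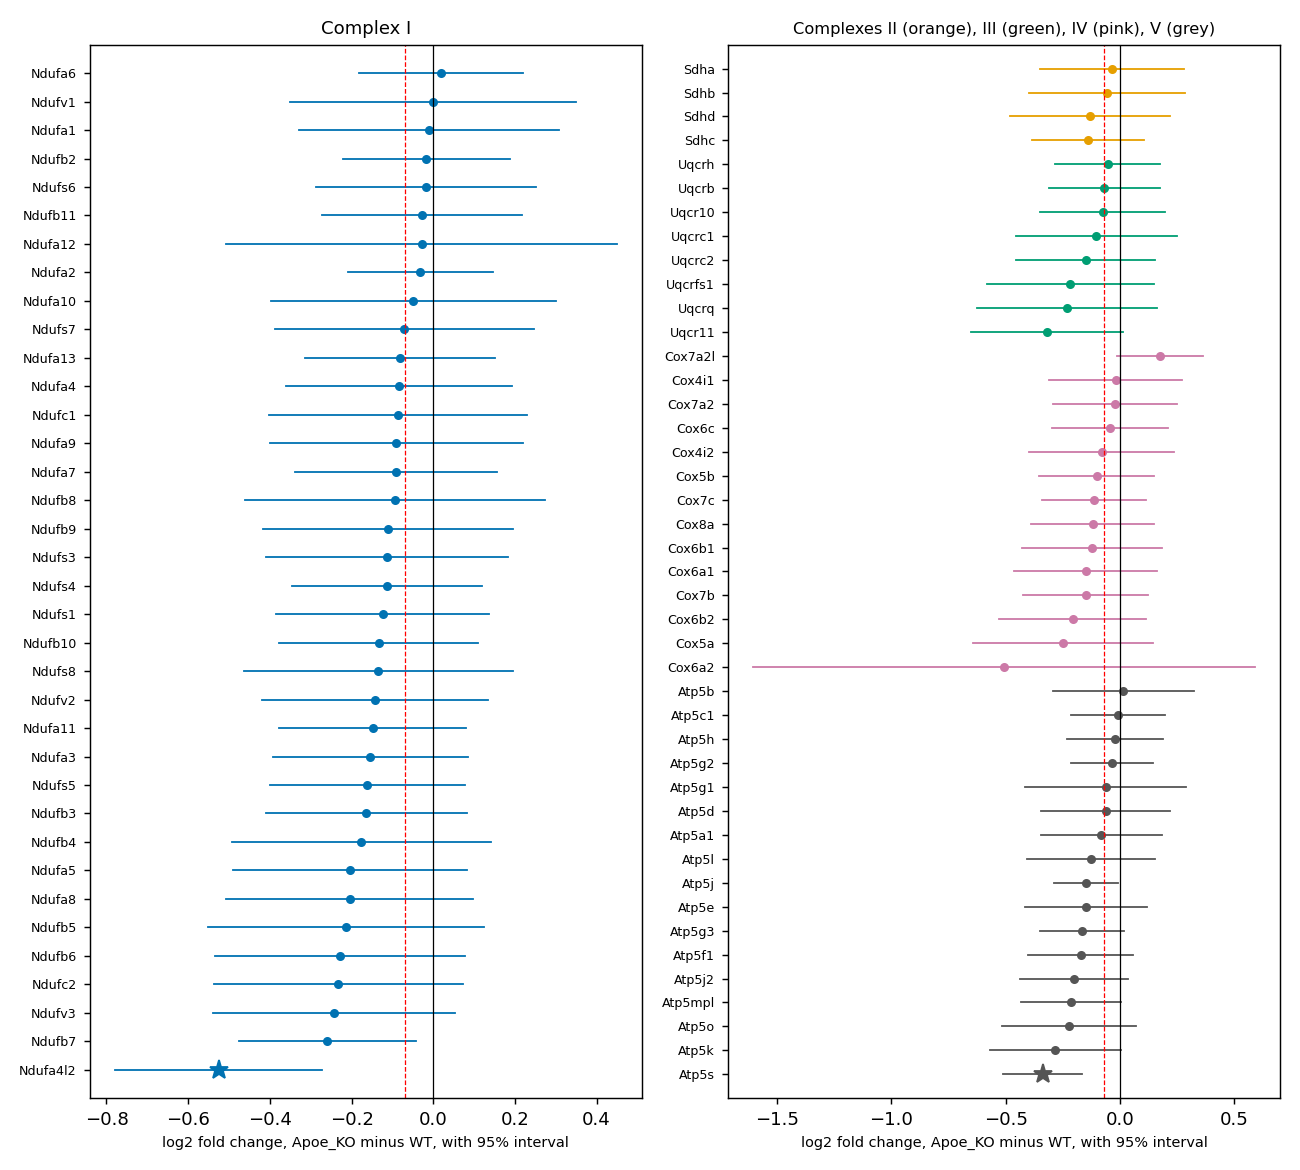
Log2 fold change of 79 of the subunit genes, knockout minus wild type on log2(FPKM + 1), with its 95% interval from limma, grouped by complex, with stars for the 2 genes that passed and a dashed line at the median of all tested genes, -0.07. Estimates lie below 0 in 76 of the 79 genes drawn, and 75 of the intervals drawn include 0.

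Complex I had a median log2 difference of -0.11 over its 37 genes. Ndufv1, which carries the NADH-binding site, measured 59.3, 59.4, 78.1, 69.9 and 66.1 FPKM in the wild-type libraries and 67.5, 93.0, 51.9 and 58.7 FPKM in the knockout libraries. Knockout library 2 was above every wild-type library and knockout libraries 3 and 4 below every one, and the log2 difference was -0.00 (SE 0.16). The groups also overlapped for other core subunits: Ndufs1, the largest iron-sulfur protein, at 19.4 ± 1.63 and 17.9 ± 3.60 FPKM, and Ndufs8, which holds iron-sulfur clusters, at 56.5 ± 7.06 and 52.2 ± 12.7 FPKM (mean ± SD, n = 5 and 4). Ndufa4, by name in complex I but now regarded as a complex IV subunit, was the highest by mean at 115 ± 12.1 and 109 ± 20.6 FPKM. The accessory subunit Ndufb7 had an interval below 0, with a log2 difference of -0.26 that did not pass the adjusted threshold (limma adjusted p = 0.135), and Ndufa6 had the largest estimate of the complex, 0.02.

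Complex II, the only one built wholly from nuclear genes, had a median of -0.09 over its 4 genes. Sdha, the flavoprotein that oxidises succinate, measured 130, 122, 151, 151 and 142 FPKM in the wild-type libraries and 137, 184, 113 and 118 FPKM in the knockout libraries. The lowest and the highest value of Sdha were both knockout libraries. The iron-sulfur subunit Sdhb lay at 60.1 ± 6.76 and 58.7 ± 15.1 FPKM, the membrane anchor Sdhc at 39.7 ± 4.65 and 36.1 ± 5.40 FPKM and the anchor Sdhd at 117 ± 14.4 and 109 ± 28.7 FPKM (mean ± SD, n = 5 and 4).

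Complex III had a median of -0.13 over 8 genes. Its lowest estimate belonged to Uqcr11, a small subunit of the complex, with 69.6, 76.5, 89.4, 82.5 and 73.3 FPKM in the wild-type libraries and 56.0, 89.3, 53.6 and 56.1 FPKM in the knockout libraries. In the knockout, libraries 1, 3 and 4 lay below all wild-type libraries and library 2 beside the highest of them, and the log2 difference of -0.32 did not pass (SE 0.15, limma adjusted p = 0.219). Uqcrfs1, the Rieske iron-sulfur protein, was at 120 ± 18.4 and 105 ± 27.9 FPKM, and the core protein Uqcrc1 at 55.7 ± 6.01 and 52.9 ± 14.8 FPKM (mean ± SD, n = 5 and 4). Uqcr10 was the highest of the complex by mean, at 126 ± 9.28 and 121 ± 24.4 FPKM, and Uqcrh, the hinge protein near cytochrome c1, had the estimate closest to 0, -0.05.

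Complex IV had a median of -0.12 over 14 genes. Cox4i1, the usual form of a subunit that binds ATP and ADP, measured 194, 210, 246, 226 and 199 FPKM in the wild-type libraries and 207, 279, 184 and 188 FPKM in the knockout libraries, with the groups overlapping. Cox7a2l, a factor that joins complexes III and IV, had the largest estimate of all 80 genes, 0.17 (SE 0.084, limma adjusted p = 0.239). It measured 85.9, 95.1, 91.8, 83.4 and 87.0 FPKM in the wild-type libraries and 92.5, 106, 89.6 and 114 FPKM in the knockout libraries, and only knockout libraries 2 and 4 exceeded every wild-type library. Cox5a and Cox5b, which lie on the matrix side, were at 30.4 ± 4.20 and 26.0 ± 7.26 FPKM and at 48.6 ± 3.95 and 45.6 ± 8.50 FPKM. Cox6a2 measured 1.19, 4.07, 4.14, 0.538 and 0.316 FPKM in the wild-type libraries, was listed at 0 in knockout library 1, and measured 2.06, 0.62 and 1.20 FPKM in the others.

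Complex V had a median of -0.15 over 17 genes. Atp5b measured 278, 267, 335, 320 and 292 FPKM in the wild-type libraries and 302, 403, 252 and 265 FPKM in the knockout libraries, with a log2 difference of 0.01 (SE 0.14). Atp5a1, the alpha subunit beside it in the catalytic head, lay at 270 ± 21.6 and 257 ± 47.2 FPKM (mean ± SD, n = 5 and 4). Atp5o, the stalk subunit that confers oligomycin sensitivity, lay at 61.0 ± 6.67 and 52.7 ± 11.3 FPKM and its exons overlap other annotated genes. Atp5j, coupling factor 6, had an interval just below 0 and a log2 difference of -0.15 that did not pass (limma adjusted p = 0.174).

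**Figure D3:**
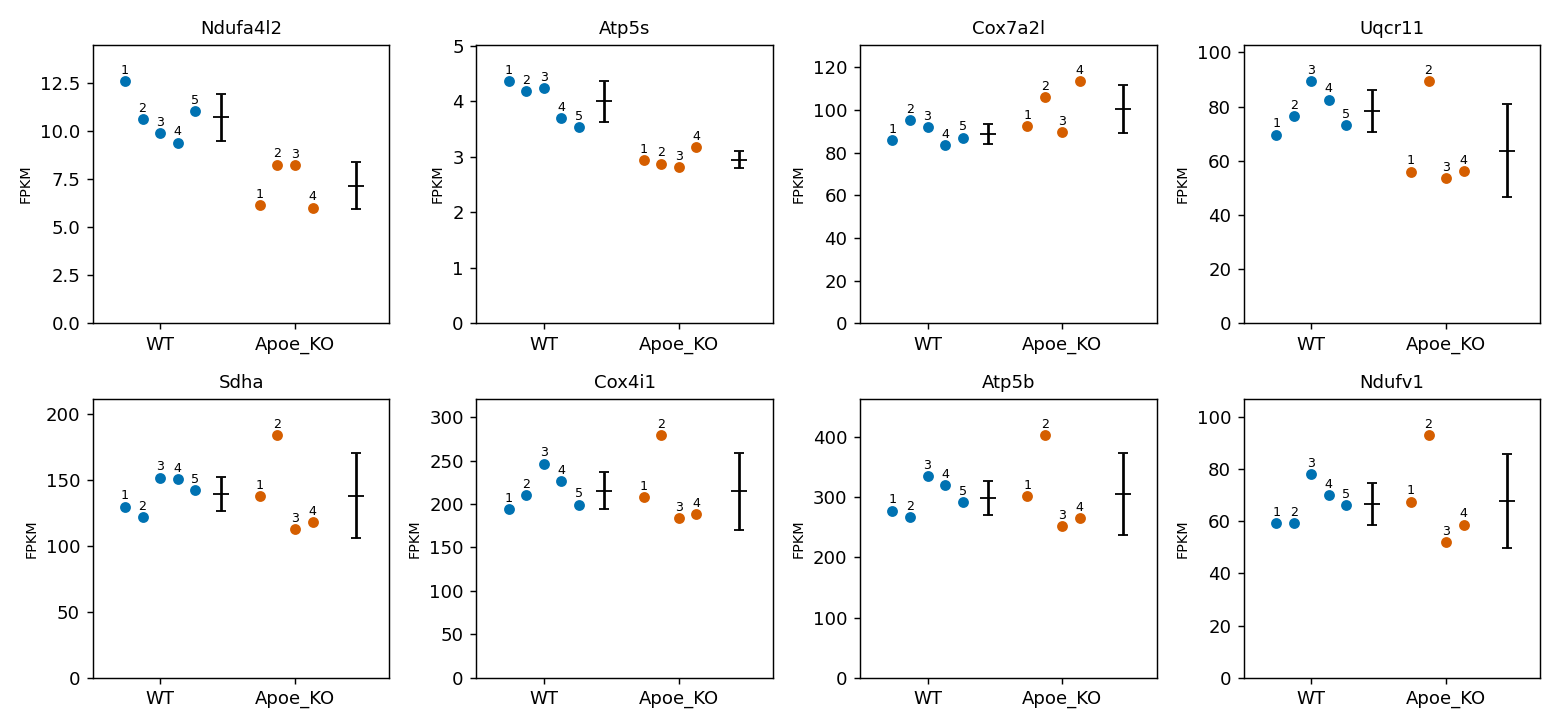
FPKM of 8 subunit genes in each library, 1 point a library with its replicate number, and the mean with its SD beside each genotype, on axes that start at 0. The genotypes are apart for Ndufa4l2 and Atp5s and overlap for the others, where knockout library 2 is the highest knockout library except for Cox7a2l.

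The libraries of 1 genotype were as far apart as the genotypes or farther. Summed over the 80 genes, the wild-type libraries reached 5240, 5348, 6438, 5888 and 5433 FPKM and the knockout libraries 5158, 6837, 4546 and 4841 FPKM. Knockout library 2 was the highest of all 9, knockout libraries 3 and 4 were the lowest, and the groups overlapped. Knockout library 2 held the highest value in 50 genes and wild-type library 3 in 19, while knockout library 3 held the lowest value in 58 and knockout library 4 in 14. The median SD between libraries on the log2 scale was 0.14 in the wild type and 0.26 in the knockout for the subunit genes, and 0.14 and 0.16 for all tested genes. The SD in FPKM was larger in the knockout for 74 of the 80 genes.

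Markers of brown adipocytes were highest in the same pair of libraries as the subunits, wild-type library 3 and knockout library 2, and lowest in the same pair, knockout libraries 3 and 4. Relative to the wild-type mean, the 80 genes averaged -0.09, -0.05, 0.18, 0.02 and -0.07 in the wild-type libraries and -0.16, 0.21, -0.32 and -0.24 in the knockout libraries on the log2 scale. The 10 brown adipocyte markers averaged -0.34, -0.24, 0.48, -0.00 and 0.11 in the wild-type libraries and -0.10, 0.48, -0.50 and -0.51 in the knockout libraries. Ucp1, the uncoupling protein that defines brown fat, was present at 146 to 459 FPKM, highest in wild-type library 3 and knockout library 2. The marker sums overlapped, at 555 to 1122 FPKM in the wild type and 467 to 1140 FPKM in the knockout, and 0 of 10 were called. In bulk tissue, fewer cells of a type and less RNA per cell cannot be told apart.

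With the mean of 8 of these markers as a covariate, leaving out the subunit genes Cox7a1 and Cox8b, the median log2 difference of the 80 genes was -0.04, the median of all tested genes -0.08, and 52 of the 80 estimates were below 0. Ndufa4l2 and Atp5s passed in that fit too (limma adjusted p = 0.0425 and 0.0404). The covariate was added after the data were seen, and its markers peak in the same libraries as the subunits. The smaller median is therefore no test, and the part of brown fat in the subunit values was not tested. White adipocyte markers were lower in the knockout by their mean. The test called 4 of 8 lower, Lep, Plin1, Adrb3 and Agpat2, compared with 3.92% of all tested genes. Their sums overlapped, at 3191 to 4874 FPKM in the wild type and 1926 to 3732 FPKM in the knockout. The 8 markers averaged -0.11, -0.04, 0.06, 0.31 and -0.22 in the wild-type libraries and -1.14, -0.32, -0.92 and -0.58 in the knockout libraries, and their part in the subunit values was not tested. Smooth muscle markers were plentiful in all libraries, with sums of 4845 to 6289 FPKM, and among other markers Des of smooth muscle was higher and Kdr of endothelium lower. Wild-type library 2 and knockout library 4 stood apart in B cell markers, at sums of 394 and 386 FPKM against 14.6 to 38.1 FPKM elsewhere, and without both libraries 0 subunit genes were called.

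**Figure D4:**
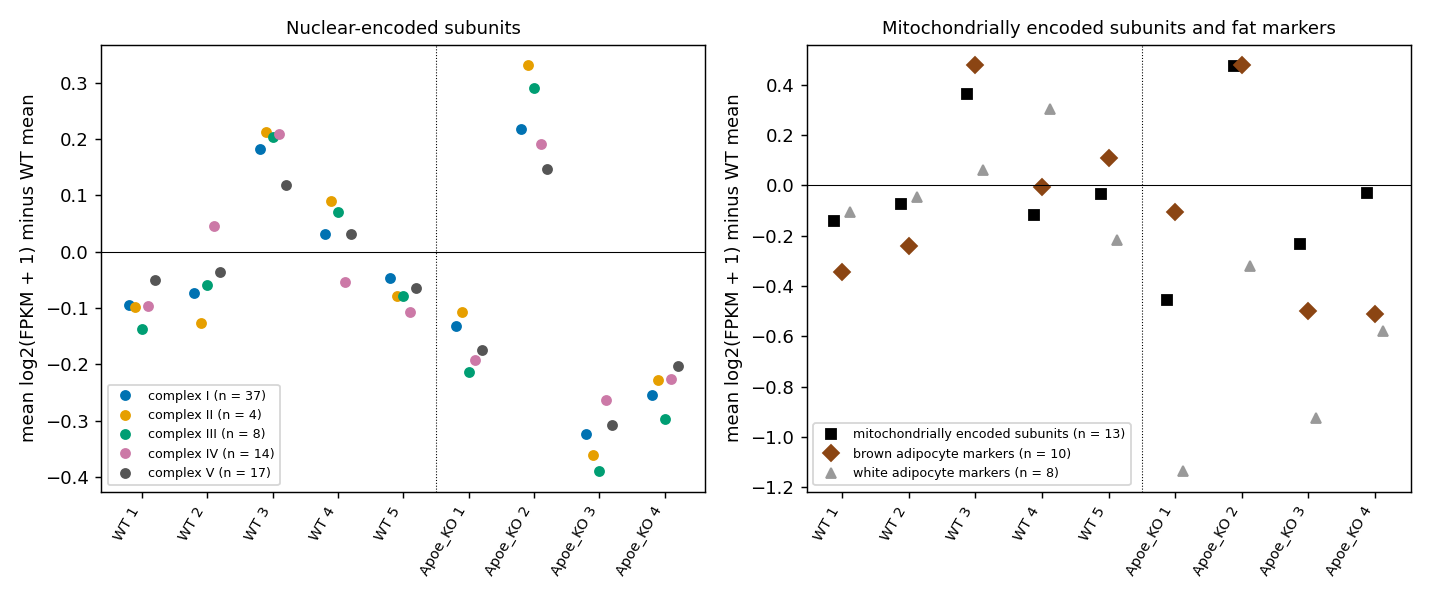
Mean log2(FPKM + 1) of each complex in each library minus its wild-type mean (left), and the same for the mitochondrially encoded subunits and the brown and white adipocyte markers (right), 1 point a list and library. All 5 complexes are high in wild-type library 3 and knockout library 2 and lowest in knockout libraries 3 and 4, and the white markers are below 0 in all 4 knockout libraries.

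Leaving out knockout library 2 changed the count. Without it, 9 subunit genes were lower, or 11.2% compared with 5.14% of all tested genes: Uqcr11, Ndufa4l2, Ndufv3, Ndufb4, Atp5k, Ndufc2, Atp5o, Atp5s and Ndufa8. Uqcr11 had the smallest p of these, with a log2 change of -0.49 (limma adjusted p = 0.0135). Without both wild-type library 3 and knockout library 2, which hold most of the highest values, 3 genes were lower, Uqcr11, Ndufa4l2 and Ndufv3, or 3.80% compared with 3.89% of all tested genes. No subunit gene was higher in any of these fits.

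Among subunits with an alternative form, 9 ratios of one form to another were compared, two-sided, by exact permutation of the genotypes (126 assignments, smallest possible p 0.0159). None passed Benjamini-Hochberg adjustment over the 9. Ndufa4l2 stood at 9.49 ± 1.98% of Ndufa4 in the wild type (SD, n = 5) and 6.68 ± 1.47% in the knockout (SD, n = 4), with an exact permutation p of 0.0476 and an adjusted p of 0.357. Cox4i2, the hypoxia-linked form, was at 1.79 ± 0.518% and 1.67 ± 0.378% of Cox4i1. Cox7a1 and Cox8b, forms typical of muscle and brown fat, were at 57.8 ± 13% and 58.0 ± 13% of Cox7a2 and at 44.6 ± 6.89% and 44.4 ± 10.7% of Cox8a. Atp5g2, one of 3 genes for the same ring subunit of ATP synthase, was at 56.0 ± 5.07% and 61.3 ± 3.36% of Atp5g3 (exact permutation p = 0.0794). Atp5g1, another of these genes, was at 8.95 ± 2.05% and 9.48 ± 1.74% of Atp5g3. Cox6b2, a form typical of testis, was at 1.40 ± 0.340% and 1.28 ± 0.468% of Cox6b1.

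**Figure D5:**
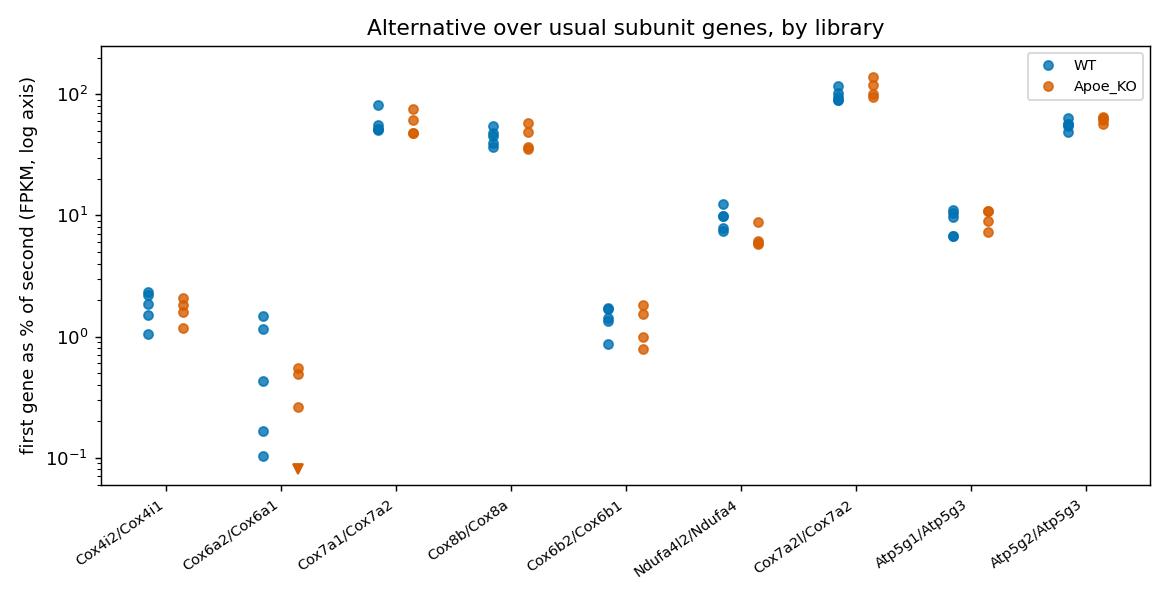
The first gene of each pair as a percent of the second, from FPKM, in every library on a log axis, 1 point a library, with a triangle for the library in which Cox6a2 is listed at 0. The genotypes overlap in all 9 ratios, and Ndufa4l2 stands at 9.49% of Ndufa4 in the wild type and 6.68% in the knockout.

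Across 12 lists of related mitochondrial genes, 196 genes were tested, of which 8 were lower and 1 was higher in the knockout. The lower genes were 4.08% of those tested, close to the 3.92% of all tested genes, so the count is near the background. None of the 13 mitochondrially encoded subunits passed. Their mean relative to the wild type was highest in knockout library 2, at 0.47, as for the nuclear subunits. It was lowest in knockout library 1, at -0.45. The mean of -0.03 in knockout library 4 was raised by mt-Nd4l. That gene stood at 549 FPKM there and at 45.2 to 142 FPKM in the other libraries. By list, the lower assembly factors were 1 of 18 for complex I, 3 of 10 for complexes II and III, and 2 of 22 for complex IV, with 0 of 4 for complex V. Bcs1l, which inserts the Rieske protein into complex III, fell from 7.73 ± 0.332 to 5.22 ± 0.658 FPKM (log2 change -0.49, limma adjusted p = 0.00694). Uqcc2, an assembly factor of cytochrome b, fell from 24.0 ± 1.64 to 18.7 ± 0.645 FPKM (log2 change -0.34, limma adjusted p = 0.0135). The other lower assembly factors were Sdhaf2, which helps attach the flavin of complex II (log2 change -0.29), Ndufaf7, a methyltransferase acting on complex I (-0.41), Cox15, needed for the heme A of complex IV (-0.33), and Coa4 (-0.45), with limma adjusted p of 0.0289 to 0.0469. All 6 had no overlap between the genotypes, as was the case for 12.4% of all tested genes. Since the test on these same values picked the 6, that adds no support.

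Slc25a10, the dicarboxylate carrier, which white fat also expresses, had the lowest estimate of these lists. It measured 20.9, 17.3, 16.5, 21.7 and 18.2 FPKM in the wild-type libraries and 7.55, 13.4, 7.85 and 11.7 FPKM in the knockout libraries, without overlap (log2 change -0.87, limma adjusted p = 0.0137). The oxoglutarate carrier Slc25a11 fell from 31.0 ± 1.35 to 23.5 ± 4.34 FPKM (log2 change -0.40, limma adjusted p = 0.048). The mitochondrial chaperonin Hspe1 rose from 48.1 ± 6.31 to 66.6 ± 8.76 FPKM (log2 change 0.46, limma adjusted p = 0.0477), with overlapping groups. No gene passed in a list of 18 electron carriers, ubiquinone-linked enzymes and further subunits. That list holds Ndufab1 of complex I and Cyc1, cytochrome c1 of complex III, which the naming rule did not match. Nor did any pass among 18 genes of the tricarboxylic acid cycle, 18 of mitochondrial import, 15 of mitochondrial gene expression or 19 regulators of mitochondrial biogenesis. Ppargc1a, the coactivator that drives mitochondrial biogenesis, lay at 4.43 ± 1.88 and 4.24 ± 2.28 FPKM (mean ± SD, n = 5 and 4).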

How the data were processed

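Aorta RNA was measured in 5 wild-type and 4 Apoe-knockout libraries. The authors deposited 1 table of FPKM values per gene; the unit was inferred from the values, since FPKM multiplied by exonic length gave whole reads (within 0.1 read) for 97.6 to 97.9% of values up to 50 reads, where chance gives 20%. The submitters' processing notes name GRCm38 and limma; no aligner or counter is named there. Gene IDs were matched to GENCODE M21 (33240 of 33293). Testing required 1 FPKM or more in 4 or more libraries and used limma 3.58.1 in R 4.3.3 on log2(FPKM + 1), with genotype alone, trended and robust empirical Bayes, and Benjamini-Hochberg adjustment over all tested genes; the fit was tested on simulated data. Isoform ratios, log2((a + 1)/(b + 1)), and motif searches used Python 3.11.15. The subunits and gene lists were chosen with earlier results of these data known. Genes were named if called, if they had the smallest p or the extreme values of a complex, if core subunits, or if part of an isoform pair; of the related lists, up to 4 called genes each. Alternatives covered scaling, pseudocount, filter, library weights, recovered reads, a replicate block and left-out libraries; the brown marker covariate was chosen after seeing the data. Of the 83 matching genes, 3 without a row in the table were not analysed here, and some genes that the naming rule picks are not reported here.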

Additional observations from a re-analysis of the deposited data

Results flagged for a closer look

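Of 136 groups of values examined, 8 had 1 library far from the others of its genotype; chance flags about 1 group in 20. Knockout library 2 was far above the other knockout libraries for Uqcr11 (89.3 FPKM), for Uqcrfs1 (146.4 FPKM) and for the mean of complex IV (0.19 on the log2 scale, relative to the wild type). In the wild type, library 3 was far above the others for Cox6b1 (240.8 FPKM) and for the log2 ratio of Cox7a1 to Cox7a2 (-0.30), and library 2 for Atp5g2 (41.4 FPKM). Cox4i2 was highest in knockout library 4 (3.87 FPKM), and the log2 ratio of Ndufa4l2 to Ndufa4 was highest in knockout library 3 (-3.34).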

How the results depend on the processing

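No called value changed sign. The 2 lower subunit genes became 0 with no filter, with median centring, with quantile normalization and without wild-type library 2 and knockout library 4, and 1 with voom on recovered reads. A filter of 10 FPKM also gave 0, because it kept neither gene in the test. Leaving out 1 library gave 0 to 9. With the brown marker covariate the medians of complexes I to V were -0.036, 0.0062, -0.027, -0.046 and -0.067. Leaving out 1 library, the medians ran from -0.24 to -0.044 for complex I, -0.22 to 0.01 for complex II, -0.29 to -0.027 for complex III, -0.22 to -0.06 for complex IV and -0.22 to -0.08 for complex V. Higher genes in the whole table numbered 702 with library weights, 247 with no filter and 203 without wild-type library 2 and knockout library 4; leaving out 1 library gave 205 to 576. Lower genes numbered 220 with the filter of 10 FPKM, 1055 with weights, 269 with median centring, 198 with no filter, 240 with quantile normalization and 174 without wild-type library 2 and knockout library 4; leaving out 1 library gave 178 to 683. In the related lists, lower genes numbered 5 with the covariate, 25 with weights, 3 with median centring, 3 with no filter, 4 with quantile normalization, 2 without wild-type library 2 and knockout library 4, and 18 without wild-type library 3 and knockout library 2, with 3 to 27 when 1 library was left out. Higher genes there numbered 2 with the covariate and 0 with weights, no filter, quantile normalization or without wild-type library 3 and knockout library 2, with 0 to 1 when 1 library was left out. The cause of the other changes was not tested.

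The labels number the libraries of both genotypes, but same-numbered libraries did not regularly deviate together across genes. The correlation was 0.26 for number 1, where wild-type library 1 was the best match of knockout library 1. For numbers 2, 3 and 4 it was -0.27, -0.13 and -0.22. With the replicate number as a block, 121 genes were higher and 62 lower, 0 subunit genes were called, and the related lists had 0 higher and 0 lower genes. At 17002884 to 19765342 reads per library, depth limits the lowest genes, and a value of 0 FPKM for Cox6a2 does not show its absence.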
